A study of Bactrocera dorsalis with 6 samples.

Results

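Eggs of the oriental fruit fly, Bactrocera dorsalis, were compared with mated adult females of the same laboratory colony, which sets the laid egg and its growing embryo beside the adult female body in which eggs are made. The comparison uses 2 of the 6 libraries of a developmental RNA-seq series, chosen by their stage labels, and the larvae, pupae, males and the library labelled female appear only to show where else a gene was found. The egg group was made from eggs of the colony Punador, sampled on each day from fresh eggs to complete hatch, with the RNA of the days pooled at equal concentration, so that early and late embryos are mixed in 1 library. The mated female group was made from whole adult females that were reared from such eggs on liquid artificial diet, kept as virgins until mature, caged with males and frozen once seen to have mated. Whole bodies hold ovaries, so eggs under construction and all body tissues are mixed in that library too. No treatment or mutation separates the groups, both come from 1 colony, and the number of animals behind each pool is not given in the sources used here.

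A fly egg is built by its mother. Nurse cells of the ovary fill it with RNA that runs the first steps of development, follicle cells around it secrete the eggshell, and yolk proteins reach it through the blood. After laying, the maternal RNA is degraded in waves while the embryo switches on its own genes, forms its organs and finally secretes the cuticle of the larva inside the shell.

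Values are expected counts, the number of sequenced fragments that the authors' software assigned to each assembled gene (unigene), and CPM, the count scaled to a library total of 1e+06. The totals were 7386960 in eggs and 8986331 in mated females, over 10799 unigenes, and 7471833 to 9905262 in the other 4 libraries. There is 1 library per stage, so no difference here has a replicate check and no p-value is given. Intervals (95%) cover counting error only. A count of 0 allows up to 3 counts, which is 0.406 CPM in eggs and 0.334 CPM in mated females. One library should be read with care: the library labelled female was within 2-fold of males for 7914 of 7999 unigenes (98.9%), and its 2 counts of the eggshell gene Cp19 compare with 12700 in mated females, so it is not used here as a picture of virgin females. In whole bodies, fewer cells of a type and less RNA per cell cannot be told apart, and every CPM value is a share of its own library.

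Most unigenes were at like levels in eggs and mated females. Of 7505 unigenes with at least 50 counts over both libraries, 5207 (69.4%) were within 2-fold, and these held 82.4% of the egg total and 70.2% of the mated female total. At least 4-fold higher in eggs were 487 unigenes (6.49%), which held 4.19% of the egg total and 0.463% of the mated female total. At least 4-fold lower in eggs were 637 unigenes (8.49%), which held 0.617% of the egg total and 15.7% of the mated female total. What mated females had in addition was thus a larger share of RNA than what eggs had in addition. Which side had more unigenes depended on the minimum: at 10 counts, 921 were at least 4-fold higher in eggs and 775 lower.

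The tail of large differences was longer on the side of mated females. At least 64-fold lower in eggs were 253 unigenes, with 10.8% of the mated female total, and at least 64-fold higher in eggs were 173 unigenes, with 1.47% of the egg total. The median log2 of eggs over mated females was 0.33 over the tested unigenes, so a typical unigene took a somewhat larger share of the egg library, and the medians of gene lists below are to be read beside it. With the library sizes behind the deposited FPKM values (fragments scaled by transcript length and by TMM-adjusted library size), every log2 value is lower by 0.23 and the median is 0.10.

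**Figure D1:**
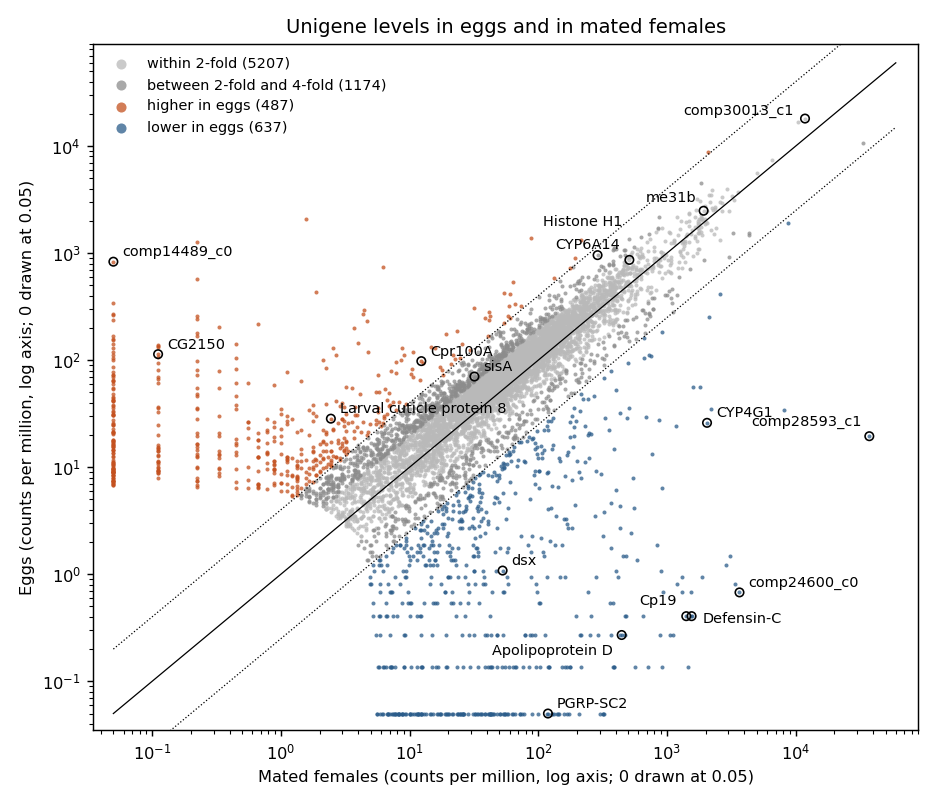
Each point is 1 of 7505 unigenes, with its level in eggs on the vertical axis and in mated females on the horizontal axis (CPM, log axes, 0 drawn at 0.05). The solid line marks equal levels and the dotted lines 4-fold, and the cloud of 5207 unigenes within 2-fold lies between 2 sprays of points: 487 higher in eggs at the upper left and 637 lower in eggs at the lower right.

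The most abundant transcripts of the 2 libraries were partly shared. The 10 unigenes with the most counts in each library had 5 in common, and none of these 20 places was held by a unigene with a name in the annotation used. First in eggs was comp30013_c1, with 133633 counts in eggs (1.81% of the total) and 106271 in mated females (1.18%), against 394 to 2129 counts in the other 4 libraries. First in mated females was comp28593_c1, paired by the authors with the D. melanogaster gene FBgn0004045, with 144 counts in eggs and 335735 in mated females. That single unigene was 3.74% of the mated female total, and its level was 1917-fold lower in eggs (1628 to 2273).

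The eggshell transcript was abundant in mated females and near 0 in eggs. Cp19, a protein of the chorion that follicle cells secrete around the egg in D. melanogaster, had 3 counts in eggs and 12700 in mated females, and 1 to 5 counts in each of the other 4 libraries. Its level was thus 3480-fold lower in eggs (1190 to 16877). Cp19 is the single unigene of the eggshell list, and it serves here as the marker of follicle cells too.

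The 2 unigenes lowest in eggs among all those with 200 or more counts in a library had the same profile across stages. The unigene comp20055_c0 had 1 count in eggs and 13005 in mated females, with 2 to 7 in the others, and carries no name or match. The unigene comp24600_c0, paired with FBgn0003979, had 5 counts in eggs and 32912 in mated females, with 1 to 6 in the others. It was 5411-fold lower in eggs (2318 to 16665). A further unigene without a name, comp25323_c0, had 254 counts in eggs, 72383 in mated females and 14 to 25 elsewhere.

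These belong to a group of unigenes that mated females alone carried at high level. Of the 637 unigenes lower in eggs, 89 (14.0%) had a level in mated females at least 4 times that of each of the other 4 libraries, and those 89 held 7.52% of the mated female total. At 64 times, 53 unigenes remained, with 6.71%. The 637 were chosen as higher in mated females than in eggs, which favours such counts. The same counts over all unigenes were not computed. Cp19 is the single named unigene at the 64-fold bound, and the peroxisomal spermine and spermidine oxidase match comp14518_c0, of an enzyme that breaks down polyamines, joins it at the 16-fold bound. The oxidase had 12 counts in eggs and 792 in mated females, with 1 to 53 in the others.

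Over all 637 unigenes lower in eggs, the level in males was close to that in mated females. The median of the 637 was 37.1 CPM in mated females, and it was 33.9 CPM in males, 11.2 CPM in pupae and 4.55 CPM in larvae. In males 358 of them (56.2%) were at or above their level in mated females, beside 28.2% of the 5207 unigenes within 2-fold.

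Both tested members of the immune list were near 0 in eggs. Defensin-C, an antimicrobial peptide made by the fat body in response to infection, had 3 counts in eggs and 13968 in mated females, 3827-fold lower in eggs (1309 to 18561). Its counts in the other libraries were 3 in larvae, 6 in pupae, 2066 in males and 1788 in the library labelled female. Peptidoglycan-recognition protein SC2, an enzyme that degrades bacterial cell wall fragments, had 0 counts in eggs and 1069 in mated females, at least 293-fold lower in eggs. A second protein of that family, PGRP-SB1, had 6 counts in eggs and 348 in mated females. GNBP3, a sensor of fungal cell walls in D. melanogaster, had 64 and 319 counts, 4.10-fold lower in eggs (3.12 to 5.45). The 2 list members, Defensin-C and SC2, compare with 8.49% of all unigenes at least 4-fold lower in eggs. PGRP-SB1 and GNBP3 come from another list and were picked after their values were seen.

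An Apolipoprotein D match and the fat body marker Lsp2 were lower in eggs too. The Apolipoprotein D match, a lipocalin that binds small lipids, had 2 counts in eggs and 3997 in mated females, 1643-fold lower in eggs (454 to 13570). Lsp2, a storage protein of the fat body and the marker of that tissue, had 48 counts in eggs and 1274 in mated females, 21.8-fold lower in eggs (16.4 to 29.7). Mated females were themselves low in Lsp2: pupae had 170089 counts and larvae 15302.

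Cytochrome P450 enzymes, which oxidise hormones, waxes and foreign compounds, were lower in eggs for many members. Of 92 P450 unigenes, 66 had enough counts, and 26 of these were at least 4-fold lower in eggs, 1 was at least 4-fold higher and 31 were within 2-fold. The shares over all unigenes are 8.49% lower and 6.49% higher. The median log2 of the P450 list was -0.82, which is 1.15 below that of all unigenes.

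The P450 families differed among themselves. In families CYP4, CYP6, CYP9, CYP12 and CYP28, where detoxification and wax enzymes are found, 25 of 50 tested unigenes were at least 4-fold lower in eggs, and in the other families 1 of 16 was. CYP4 had 10 of 17 lower, CYP6 had 8 of 23, CYP12 had 4 of 6 and CYP28 had 2 of 2. Assembled unigenes with the same P450 name can be close copies that share reads, so values of single CYP unigenes are uncertain to that extent.

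CYP4G1, the enzyme that completes the waterproofing hydrocarbons of the cuticle in D. melanogaster, matched 2 unigenes. The first, comp29180_c1, had 192 counts in eggs and 18414 in mated females, 78.8-fold lower in eggs (68.4 to 91.4), and 27886 in males. The second, comp28492_c0, had 1 count in eggs and 1575 in mated females, 1295-fold lower in eggs with an interval of 232 to 51169. CYP6A23 had 15 counts in eggs and 1113 in mated females, 61.0-fold lower in eggs (36.8 to 109). CYP12E1 (comp28396_c0) had 2 and 810 counts, CYP4AC2 had 1 and 493, and CYP28D1 (comp23018_c0) had 2 and 362. Each of these P450 unigenes was well represented in males as well, at 249 to 2666 counts for the last 3 and comp28492_c0.

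1 P450 unigene, picked after its values were seen, was shared by eggs and mated females and nearly missing elsewhere. CYP6A14 (comp30145_c0) had 6393 counts in eggs and 4589 in mated females, with 12 in larvae, 2 in pupae, 0 in males and 3 in the library labelled female. In CPM that is 865 in eggs and 511 in mated females, 1.69-fold higher in eggs (1.63 to 1.76). CYP4C3, with 152 counts in eggs and 20 in mated females, was the single P450 at least 4-fold higher in eggs, 9.25-fold (5.78 to 15.6).

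The other detoxification families were less divided. Of 30 tested glutathione S-transferases (GST), which couple glutathione to reactive compounds, 18 were within 2-fold, 3 were at least 4-fold lower in eggs and 1 at least 4-fold higher, beside 69.4%, 8.49% and 6.49% of all unigenes. Their median log2 was -0.04. The lowest, comp29759_c1, had 76 counts in eggs and 615 in mated females, and the highest, comp26383_c0, had 375 in eggs and 52 in mated females. A GST described after its values were seen, comp20714_c0, had 504 counts in eggs and 629 in mated females and 1 to 3 in each of the other 4 libraries.

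UDP-glucuronosyltransferases (UGT), which attach sugars to small molecules, had 2 of 17 tested unigenes at least 4-fold lower in eggs and 2 at least 4-fold higher, beside 8.49% and 6.49% of all unigenes, with a median log2 of 0.04. The highest, comp18382_c0, had 113 counts in eggs and 0 in mated females, at least 45.8-fold higher in eggs, with 17 counts in pupae and 2 in larvae. The lowest, comp29535_c0, had 42 in eggs and 592 in mated females, 11.6-fold lower in eggs (8.47 to 16.2). A UGT picked after its values were seen, comp27454_c0, was shared by both: 4734 counts in eggs and 4061 in mated females, against 33 to 333 elsewhere.

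The list of CncC and Keap1 targets, genes that a stress-responsive transcription factor controls in D. melanogaster, had 32 of 118 tested unigenes at least 4-fold lower in eggs and 13 at least 4-fold higher. The shares over all unigenes are 8.49% lower and 6.49% higher, and the median log2 of the list was -0.31 beside 0.33 for all unigenes. Its lowest member was Cp19 and its highest the unigene comp27113_c0, entered as CG2150 and paired with FBgn0003065. That unigene had 841 counts in eggs and 1 in mated females, 1023-fold higher in eggs (183 to 40457), and reached 26589 counts in pupae. Its members lower in eggs included fat body and adult genes such as Lsp2, PGRP-SB1 and CYP6D5, and those higher included cuticle and matrix genes that are described with the embryo below. The list also holds dsx and the haemocyte gene Hml, so it is not a list of detoxification enzymes.

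**Figure D2:**
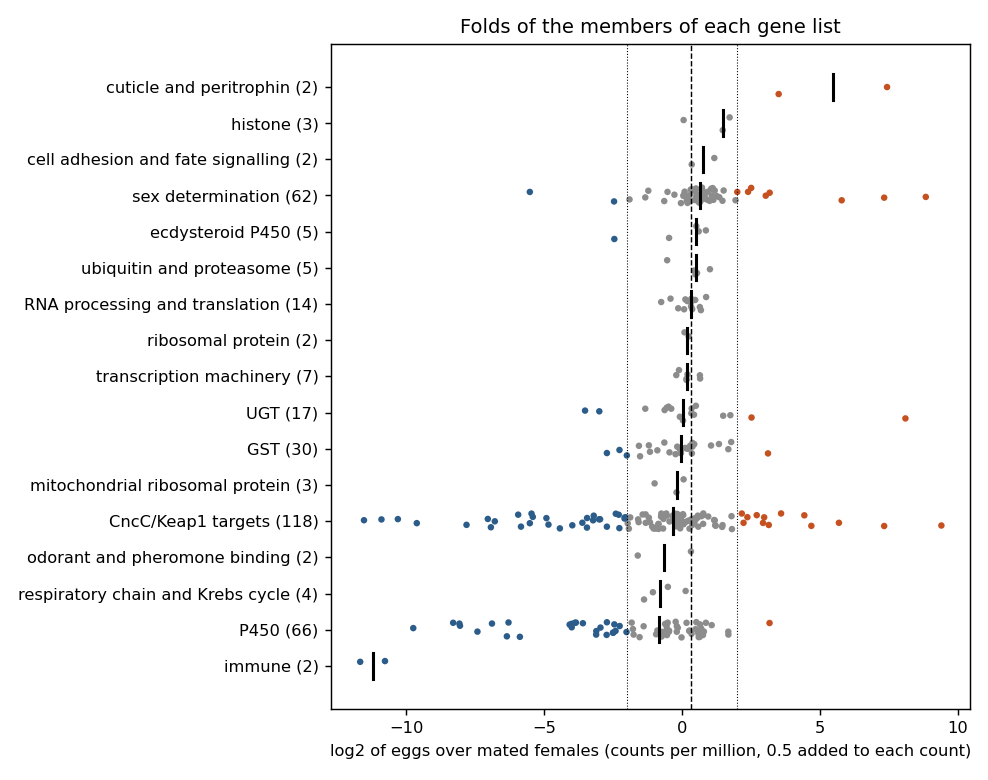
Each point is a tested unigene of a gene list, placed by its log2 of eggs over mated females (horizontal axis), with the number tested in brackets. Black bars are list medians, the dashed line is the median of all 7505 unigenes (0.33) and dotted lines mark 4-fold. P450 unigenes reach far to the left with 26 past 4-fold, while the 14 RNA processing unigenes stay within 2-fold.

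Genes of the early embryo were present in both eggs and mated females and rare in the other stages. The sisterless gene sisA, which counts X chromosomes in early D. melanogaster embryos, had 520 counts in eggs and 287 in mated females, and 3, 2, 0 and 0 in larvae, pupae, males and the library labelled female. Its level was 2.20-fold higher in eggs (1.90 to 2.55). The pair-rule gene runt, which patterns the segments of the D. melanogaster embryo, had 464 counts in eggs and 320 in mated females, with 3 or 4 in each other library, 1.76-fold higher in eggs (1.53 to 2.04). Both were listed as markers of early embryos, and both were present in whole mated females at more than 30 CPM.

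Several transcripts with roles in oocytes behaved likewise, and these were chosen after their values were seen. The match to me31b, an RNA helicase that keeps maternal messages silent in the D. melanogaster oocyte, had 18389 counts in eggs and 17315 in mated females, or 2489 CPM in eggs and 1927 CPM in mated females, against 73.2 to 148 CPM in the other 4 libraries. The mos match, a kinase of oocyte maturation, had 198 counts in eggs and 142 in mated females, and 0 to 11 elsewhere. Of the 5207 unigenes within 2-fold, 331 (6.36%) were at least 4 times higher in both eggs and mated females than in any of the other 4 libraries. Those 331 held 10.2% of the egg total and 7.52% of the mated female total, and 52 of them passed the same bound at 64 times. The share of all unigenes that pass these bounds was not computed.

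Basic machinery for handling RNA differed little. All 14 tested members of the RNA processing and translation list and all 7 of the transcription machinery list were within 2-fold, against 69.4% of all unigenes. The lowest in eggs was the D-tyrosyl-tRNA deacylase match, with 46 counts in eggs and 95 in mated females, and the highest the ribosome biogenesis protein WDR12 match, with 966 and 640. The 14 summed to 3611 CPM in eggs and 2884 CPM in mated females, of which me31b was 2489 CPM and 1927 CPM, and to between 471 and 845 CPM in the other libraries. The median log2 of the 14 was 0.33, as over all unigenes. Ribosomal protein L9 (13659 counts in eggs and 15594 in mated females) and L10a-2 (22428 and 23035) were likewise within 2-fold.

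Histones, the proteins that package DNA, were higher in eggs for 2 of 3 members, short of 4-fold, with a median log2 of 1.48. Over all unigenes 10.9% were between 2-fold and 4-fold higher in eggs. Histone H1, the linker histone, had 7079 counts in eggs and 2598 in mated females, 3.31-fold higher in eggs (3.17 to 3.47), and 62 to 356 counts in the other 4 libraries. Histone H3 had 539 in eggs and 235 in mated females, with 5 to 23 elsewhere. Histone H4 had 3631 in eggs and 4242 in mated females and was as abundant in other stages, at 1747 to 5146 counts. Histone genes come in near-identical copies, so these values are uncertain as to copy.

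Respiratory chain genes leaned the other way. Of 4 tested members, 2 were within 2-fold and 2 were between 2-fold and 4-fold lower in eggs, with a median log2 of -0.78. The shares over all unigenes are 69.4% and 4.76%. Cytochrome c oxidase subunit 5B, of the last enzyme of the chain, had 2225 counts in eggs and 7032 in mated females, 2.60-fold lower in eggs (2.48 to 2.73). The NADH dehydrogenase beta subunit match comp14799_c0 had 673 and 1702 counts, 2.08-fold lower in eggs (1.90 to 2.28).

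The smaller housekeeping lists held no unigene past 4-fold. Over all unigenes 69.4% were within 2-fold, 6.49% at least 4-fold higher in eggs and 8.49% at least 4-fold lower. All 3 mitochondrial ribosomal proteins were within 2-fold, the lowest in eggs being S33 with 114 counts in eggs and 277 in mated females. Of 5 tested ubiquitin and proteasome members 4 were within 2-fold, and Rnf220, a ligase that attaches ubiquitin, had 34.7 CPM in eggs and 17.1 CPM in mated females, 2.02-fold higher in eggs (1.65 to 2.49). Of 2 tested members of the cell adhesion and fate signalling list, the Activin receptor type-1 match had 803 and 433 counts, 2.26-fold higher in eggs. A pheromone-binding protein match of the odorant list, comp14572_c0, had 172 counts in eggs and 638 in mated females, 3.05-fold lower in eggs (2.57 to 3.63). None of the 13 unigenes of the ion channel and neurotransmitter receptor list reached 50 counts over both libraries. The receptor subunit nAcRbeta-21C, given with the nerve markers, is not in that list.

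The unigenes with the largest folds towards eggs had no name. The 2 highest unigenes with 200 or more counts were comp14489_c0, with 6147 counts in eggs and 0 in mated females (at least 2493-fold higher in eggs), and comp29242_c1, with 2549 and 0 (at least 1034-fold). Larvae had 1425 counts of comp14489_c0 and 400 of comp29242_c1, while pupae, males and the library labelled female had 1 to 10. The authors' annotation predicts a signal peptide for comp14489_c0, and whether its product is secreted was not tested. A further unigene, comp21656_c0, was close to confined to eggs among these libraries: 9339 counts in eggs, 2 in mated females and 0 to 4 elsewhere.

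Both tested members of the cuticle and peritrophin list were higher in eggs. Larval cuticle protein 8 had 210 counts in eggs and 22 in mated females, 11.6-fold higher in eggs (7.47 to 18.9). Pupae and males exceeded eggs, with 10134 and 737 counts, and larvae had 207. The chitinase 3 match, of enzymes that remodel the chitin of cuticle and gut lining, had 71 in eggs and 0 in mated females, at least 28.8-fold higher in eggs, and 343 in larvae. Both were past 4-fold, against 6.49% of all unigenes, and the other 5 members had too few counts.

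Some further chitin-binding genes, members of the CncC and Keap1 list, were higher in eggs too. Cpr100A, with the chitin-binding domain of insect cuticle proteins, had 724 counts in eggs and 111 in mated females, 7.93-fold higher in eggs (6.49 to 9.78), and was higher still in males, at 11031. The obstructor genes obst-B and obst-A, which organise chitin in the D. melanogaster larva, had 514 against 95 counts and 872 against 305 counts in eggs against mated females. The first was 6.58-fold higher in eggs (5.28 to 8.28) and the second 3.48-fold (3.05 to 3.98). Both were higher still in larvae, pupae, males and the library labelled female. In CPM, obst-B was 69.6 in eggs, 377 in pupae and 234 in males, and obst-A was 118, 769 and 254. In CPM, Cpr100A was 12.4 CPM in mated females and 1114 CPM in males.

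Cg25C, a chain of the collagen IV of basement membranes, had 6661 counts in eggs and 1722 in mated females, 4.71-fold higher in eggs (4.46 to 4.96). Larvae exceeded both, with 26194 counts. The match to the anoxia up-regulated protein had 614 counts in eggs and 94 in mated females, 7.95-fold higher in eggs (6.39 to 9.98). Jheh1, an epoxide hydrolase that inactivates juvenile hormone, had 229 and 79 counts, 3.53-fold higher in eggs (2.72 to 4.61). The CD9 match, of the tetraspanin membrane proteins, had 769 and 220 counts, 4.25-fold higher in eggs (3.66 to 4.96). With the library sizes behind the deposited FPKM, CD9 is under 4-fold. So is comp27198_c0, with 65580 counts in eggs and 18636 in mated females, 4.28-fold higher in eggs, which alone is 0.888% of the egg total. Eggs were not its highest stage: larvae, pupae, males and the library labelled female had 81580 to 181509 counts and higher CPM.

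**Figure D3:**
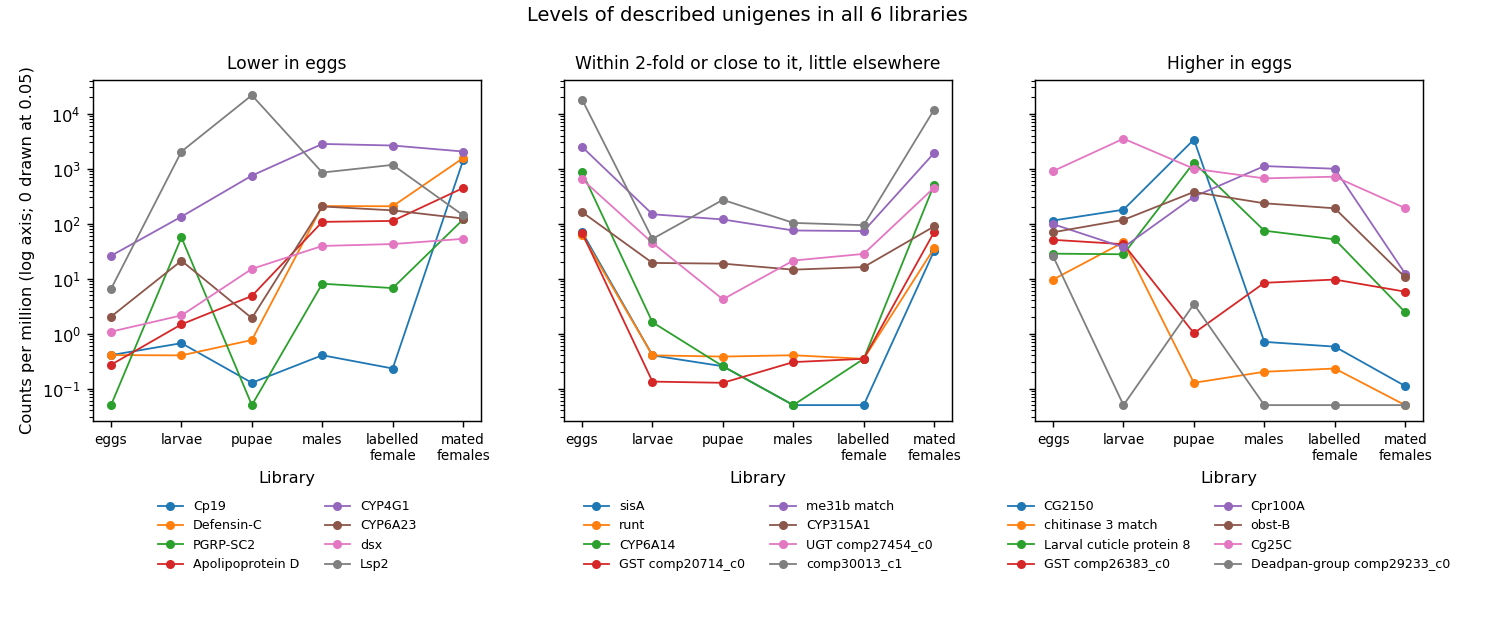
CPM (log axis, 0 drawn at 0.05) of 8 unigenes per panel in the 6 libraries, with 1 point per library and lines only to guide the eye. The left panel shows Cp19 near 0 everywhere but in mated females, the middle panel shows genes such as CYP6A14 high at both ends and low between, and the right panel shows genes such as CG2150 high in eggs, larvae or pupae and low in mated females.

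Enzymes that make the moulting hormone ecdysone from sterols, and the one that inactivates it, were mostly within 2-fold between eggs and mated females. Of 5 ecdysteroid P450 unigenes, 4 were within 2-fold and 1 was at least 4-fold lower in eggs, with a median log2 of 0.52. The shares over all unigenes are 69.4% and 8.49%, so 5 members do not set this list apart. CYP315A1 (shadow in D. melanogaster) had 1198 counts in eggs and 799 in mated females, 1.82-fold higher in eggs, and 140 to 147 counts in the other 4 libraries. CYP314A1 (shade), which makes the active hormone, had 766 and 612 counts. CYP302A1 (disembodied) had 194 in eggs and 327 in mated females, and CYP18A1, which inactivates the hormone, had 979 and 831.

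CYP306A1 (phantom) was the exception, with 18 counts in eggs and 123 in mated females, 5.62-fold lower in eggs (3.41 to 9.79). Its other counts were 31 in larvae, 37 in pupae, 0 in males and 2 in the library labelled female. Summed over the 5 enzymes the level was 427 CPM in eggs and 300 CPM in mated females, against 96.5 to 153 CPM in the other libraries.

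Single sex determination genes differed in direction. The doublesex gene dsx, the transcription factor that gives body cells their sexual form, had 8 counts in eggs and 475 in mated females, 48.8-fold lower in eggs (24.6 to 114). With 8 egg counts its sex-specific isoforms could not be compared. The splicing partner tra-2 had 920 counts in eggs and 630 in mated females, 1.78-fold higher in eggs (1.60 to 1.97), and 149 to 234 elsewhere.

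Dosage compensation genes, which raise X-linked output in D. melanogaster males, were all at least as high in eggs in CPM. The counts of msl-1 were 607 in eggs and 643 in mated females, those of msl-2 were 194 and 98, and those of msl-3 were 895 and 645. The ratios were 1.15 (1.03 to 1.29), 2.41 (1.88 to 3.10) and 1.69 (1.52 to 1.87), and with the library sizes behind the deposited FPKM the first is below 1. The proneural gene scute had 4 counts in eggs and 0 in mated females, too few to compare.

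The other sex determination entries are families found by similarity, and each can hold unrelated genes: the Notch group holds a P450 unigene and the Sxl group a splicing factor. Over all 62 tested unigenes of the list, 8 were at least 4-fold higher in eggs, 2 at least 4-fold lower and 38 within 2-fold, beside 6.49%, 8.49% and 69.4% of all unigenes. The median log2 was 0.65, against 0.33 over all unigenes. The unigene with most counts was within 2-fold in each of the groups named for Gro, Notch, Sxl and Deadpan, and the authors' matches show that it need not be the gene the group is called after. In the Gro group it was comp27217_c0, with 7366 counts in eggs and 12904 in mated females. In the Notch group comp22887_c0, whose best matches are FBgn0011747 and FBgn0261788, had 1687 and 2484 counts. In the Sxl group comp26353_c0, whose best matches are FBgn0033705 and FBgn0265297, had 14400 and 17996 counts. In the Deadpan group comp27002_c0 had 1743 and 1798 counts. The highest-count unr match, comp27709_c0, which the UGT list also claims, had 735 and 2253 counts, 2.52-fold lower in eggs (2.32 to 2.74).

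The Deadpan group, similar to a family of repressors that act in embryonic nerve cells of D. melanogaster, held several unigenes that eggs had and mated females had at or near 0. Of 8 tested, 4 were at least 4-fold higher in eggs and 4 within 2-fold, beside 6.49% and 69.4% of all unigenes, with a median log2 of 1.39. The highest, comp29233_c0, had 189 counts in eggs, 0 in mated females and 27 in pupae, with 0 in larvae, males and the library labelled female, at least 76.6-fold higher in eggs. The unigene comp8341_c0 had 66 and 0 counts, and comp8433_c0 had 68 and 1. The 3 were singled out after their values were seen. In the Notch group 4 of 22 tested unigenes were at least 4-fold higher in eggs and 1 at least 4-fold lower, beside 6.49% and 8.49% of all unigenes, and comp27442_c0 had 395 counts in eggs and 58 in mated females, 8.28-fold higher in eggs (6.28 to 11.1).

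Markers of tissues bear on what each library held. Mf, a protein of muscle thick filaments, had 5345 counts in eggs and 11005 in mated females, 1.69-fold lower in eggs (1.64 to 1.75), so muscle transcripts were present in both. Hml, of haemocytes, had 138 and 814 counts, 4.85-fold lower in eggs (4.04 to 5.85). Among nerve markers, synaptotagmin-1 and the serotonin transporter were low in both, with 8 and 11 counts in eggs and 3 and 0 in mated females. The nerve marker nAcRbeta-21C had 74 counts in eggs and 208 in mated females, 2.31-fold lower in eggs (1.76 to 3.05). It was not low in mated females, where its 23.1 CPM was above the median unigene of that library (17.6 CPM). In eggs it was below the median unigene (18.3 CPM). Of the 5 gut protease unigenes, 2 were at 0 in eggs and 3 at 0 in mated females, and the 1 tested, Trypsin-4, had 65 counts in eggs and 61 in mated females.

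Axonemal dyneins, the motors of sperm tails and cilia, were nearly missing from both libraries. The 8 unigenes summed to 2.17 CPM in eggs, with 4 at 0, and to 0.223 CPM in mated females, with 7 at 0. Males had 42.0 CPM and the library labelled female 44.7 CPM.

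Unigenes were also split by their level in males, a library that neither side of the comparison uses. Of 1472 unigenes at 100 CPM or more in males, 38 (2.58%) were at least 4-fold higher in eggs, 172 (11.7%) at least 4-fold lower and 1059 (71.9%) within 2-fold. These 172 alone held 10.9% of the mated female total. Of 4285 unigenes at 10 to under 100 CPM in males, 111 (2.59%) were at least 4-fold higher in eggs, 316 (7.37%) at least 4-fold lower and 3213 within 2-fold. Unigenes with little or nothing in males pass the minimum of counts only through eggs or mated females, which builds large folds into them, so their shares are not compared with these.

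The unigenes higher in eggs had higher medians in larvae and pupae than in males. The median of the 487 was 19.0 CPM in eggs, 21.9 CPM in larvae, 13.7 CPM in pupae and 3.94 CPM in males. In larvae 228 of them (46.8%) were at or above their egg level, and in males 82 (16.8%) were. Of the 5207 unigenes within 2-fold, 29.4% in larvae and 28.2% in males were at or above their mated female level. With 3 or fewer counts in each of the other 4 libraries were 17 of the 487, and 37 of the 637 lower in eggs. The same held for 24 of the 5207. Such unigenes pass the minimum of counts only through eggs or mated females, so their shares of the classes are not compared. Eggs stood at least 4 times above each of the other 4 libraries for 57 of the 487 (11.7%), and this share over all unigenes was not computed.

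More unigenes were detected in eggs alone than in mated females alone, although the egg library was the shallower one. Over 3 counts in both libraries were 7814 unigenes, in eggs alone 915 and in mated females alone 519. With 0 counts on one side and at least 100 on the other, 69 unigenes had counts in eggs and 0 in mated females, and 93 had counts in mated females and 0 in eggs. For those 93 the deposited FPKM is 0 in mated females too, as it is for each unigene with 0 egg counts and more than 3 mated female counts (249), so the FPKM table hides them. Peptidoglycan-recognition protein SC2 is 1 of them.

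Some unigenes at like total levels were represented by different assembled isoforms. Of 2993 unigenes with 2 or more isoforms and at least 100 counts in each library, 141 (4.71%) had an isoform whose share of the unigene differed by 50 points or more. The largest shift had a median of 11.6 points, and it was under 10 points for 1335 unigenes. Of the 141, 93 were within 2-fold in total level, near the 69.4% over all 7505 unigenes tested for level. The share over the 2993 was not computed. Assembled isoforms can be splice forms or variants of alleles or copies, which these files do not tell apart.

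The clearest exchange was in comp22400_c0, matched to FBgn0038106 and FBgn0038107, whose total was near equal at 332 counts in eggs and 412 in mated females. Isoform 1 took all 332 egg counts and 0 of the 412 mated female counts, which allows a share of up to 0.728%. It took 0% in the other 4 libraries also, so that among these libraries it was found in eggs alone. The other 4 largest shifts were in unigenes without names. In comp30404_c0 and comp29048_c0 the first isoform took 100% in eggs and 0% in mated females, from 107 and 163 counts and from 189 and 126 counts. In comp28623_c0 it took 99.6% and 0%, and in comp29959_c0 isoform 3 took 98.9% and 0%. None of these 4 isoforms was confined to eggs. The one of comp30404_c0 took 63.1% in larvae and 6.63% in males, and that of comp29048_c0 15.8% in larvae and 78.9% in males. Those of comp28623_c0 and comp29959_c0 took 52.2% and 53.8% in pupae.

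Among named genes past 50 points, the muscle gene Mf was the most deeply counted. Its isoform 5 took 0% in eggs, where 0 of 5345 counts allows up to 0.0561%, and 72.1% in mated females (71.3% to 72.9%). Isoform 19 took 51.3% in eggs and 6.51% in mated females. Larvae were like eggs, with 60.9% for isoform 19 and 0% for isoform 5. In pupae, males and the library labelled female, isoform 5 took 7.83%, 11.6% and 15.1%, and isoform 19 took 24.6%, 13.6% and 12.6%. The high share of isoform 5 was thus found in the mated female library alone, and males did not share it. In comp30423_c0, isoform 5 took 2.36% in eggs and 95.1% in mated females, while total levels were 859 and 632 counts. This unigene is in the unr group by similarity alone, and its identity was not tested.

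Enzymes of the P450 and UGT lists shifted as well. In CYP9B2 isoform 12 took 73.4% in eggs (69.4% to 77.0%) and 15.8% in mated females (14.3% to 17.3%). In UGT comp30185_c0 isoform 3 took 91.2% in eggs and 24.8% in mated females, and 98.8% in larvae. In Ppn, papilin of the extracellular matrix, isoform 8 took 55.4% in eggs and 0% in mated females. CYP315A1 moved less: isoform 3 took 48.0% in eggs (45.2% to 50.8%) and 25.2% in mated females (22.4% to 28.4%), and 0% in each of the other 4 libraries. The sisA unigene had 70.7% of egg counts and 54.0% of mated female counts on its second isoform.

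**Figure D4:**
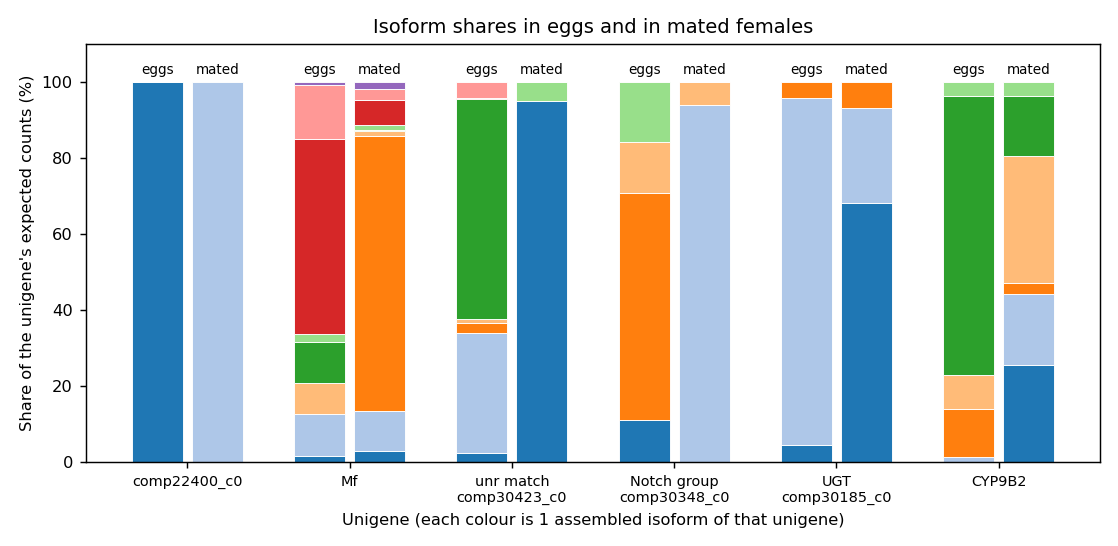
Stacked bars give the share (%) of each unigene's expected counts on its assembled isoforms, with eggs left of mated females and 1 colour per isoform within a unigene. For comp22400_c0 the whole bar changes colour, and for Mf the isoform with 72.1% in mated females is at 0% in eggs.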

How the data were processed

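Total RNA of each stage was prepared with a TruSeq RNA kit and sequenced as 1 paired-end library. The authors filtered reads, assembled them with Trinity, aligned each library to the transcripts with Bowtie (0.12.7 per the labels' processing notes) and estimated abundance with RSEM (1.2.0 in those notes). They deposited expected counts (not normalized) and TMM-normalized FPKM for 10799 unigenes and 20666 isoforms. No genome was used, so no sequence or position is given, and 0 unigene identifiers occur among the 17486 genes of the reference list. Names come from the study's annotation tables, of which the Swiss-Prot table was held in part: 524 unigenes (4.85%) had a usable name, so unnamed unigenes are given by identifier. 0 columns were left without a sample.

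Folds are ratios of CPM. A log2 with 0.5 added to each count set the classes (4-fold, 2-fold), at a minimum of 50 counts over both libraries, and expected counts were rounded for intervals (exact conditional binomial for ratios, Wilson for shares). The scripts were tested on simulated data, where the required interval coverage was relaxed, from each simulated fold size to all of them pooled, after a first run missed it for 1 fold size. Named were each unigene of the eggshell, ecdysteroid and sex determination lists (for families the one with most counts), the extremes of each other list, the 12 highest and 12 lowest named unigenes with 200 counts in a library, the 2 highest and 2 lowest of all, the 5 largest isoform shifts and the markers. Members and lists were chosen with earlier results of these data known. Alternatives were other scalings, minima, prior counts, thinning, FPKM and isoform bounds. The software was scipy 1.17.1 and numpy 2.4.6 for intervals, pandas 2.3.3 for tables and matplotlib 3.10.9 for plots, under Python 3.11.15.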

Additional observations from a re-analysis of the deposited data

How the results depend on the processing

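No paired analysis was possible because each stage has 1 library. The counts of unigenes at least 4-fold higher, at least 4-fold lower and within 2-fold were compared with 487, 637 and 5207. They stayed within 1.5 times under other scalings, 8-fold and 3-fold bounds, 3 added counts and thinning of the mated female counts. The FPKM setting gave 378, 473 and 7471 but covers another set: it has no minimum of counts and adds 1 to each FPKM. It also cannot see unigenes with 0 egg counts, so it is no check on the 7505. The minimum of counts moved the count higher in eggs, and at 200 counts the count lower in eggs. At a minimum of 10 counts 921 unigenes were higher in eggs and 775 lower, with no minimum 1314 and 918, and at 200 counts 206 and 424. The higher ones were thus 54.3% and 58.9% of calls at the 2 looser minima, against 43.3% at 50 counts, so which side has more calls depends on the minimum. That no unigene changed sides is no check, because a minimum alters no fold. The TMM and median-of-ratios scalings shift every log2 by -0.23 and -0.28, too little to carry a unigene from 4-fold higher to 4-fold lower. The share of the egg total in unigenes higher in eggs (4.19%) was 2.94% with TMM sizes, 2.84% with median-of-ratios size factors, 3.07% with totals without the 50 largest unigenes and 2.22% at 8-fold. The share of the mated female total in unigenes lower in eggs (15.7%) was 16.2%, 16.6%, 15.9% and 13.3% in the same order. Unigenes with an isoform shift of 50 points (141) were 239 at a minimum of 30 counts and 73 at 300, and 423 at a bound of 30 points. Of 78 unigenes named by rule with 50 counts, 76 kept their side of 4-fold with TMM sizes and 75 with median-of-ratios factors. CD9 and Cg25C dropped under 4-fold, and comp29959_c0 passed 4-fold lower in eggs. With 1 library per stage, depth limits only the low counts: below 3 counts presence and absence cannot be told apart, and no setting replaces a second pool of animals.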
